A study of Mus musculus with 12 samples.

Results

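The 81 genes described here are the nuclear genes for subunits of the 5 complexes of oxidative phosphorylation that were measured above a low minimum in mouse liver. They were chosen by symbol alone. Names beginning Ndufa, Ndufb, Ndufc, Ndufs or Ndufv with a digit, Sdha to Sdhd, names beginning Uqcr, Cyc1, names beginning Cox4 to Cox8 followed by a, b or c, and names beginning Atp5 gave 93 symbols in a table of 47263 genes. Of these, 6 carried a pseudogene suffix and were left out. A further 6, namely Cox6c2, Cox7b2, Cox8c, Ndufa11b, Ndufb4c and Ndufs6b, did not reach a value of 10 in at least 3 libraries. The remaining 81 members stood among 13871 genes tested. Complex I held 35 of them, complex II 4, complex III 9, complex IV 16 and complex V 17, with Ndufa4 and its paralog Ndufa4l2 counted in complex IV, where the Ndufa4 protein is found. Atp5s, a related factor rather than a structural subunit, was kept in complex V because its symbol meets the rule. The symbols Cox4i1, Cox4i2, Ndufab1 and Cycs do not meet it and are given apart.

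RNA was sequenced from whole livers in 12 libraries, 3 in each of 4 groups. WT GFP and WT MET/CAT livers came from wild-type mice. KO GFP and KO MET/CAT livers came from mice with a Sirt2 knockout in hepatocytes, so other liver cells are not stated to lack the gene. Which Cre driver was used and which exons were deleted was not stated in the sources used here. Sirt2 is an NAD-dependent deacetylase. MET/CAT stands for 2 transposon plasmids, one for c-MET and one for DN90-β-catenin, both behind the EF1a promoter, given with the sleeping beauty transposase, which inserts them into the genome of a share of hepatocytes. GFP stands for a GFP plasmid, whose cocktail is not described in the sources used here. Mice were 6 to 8 weeks old at a rapid high-volume tail vein injection, livers were taken 8 weeks later, and mice were matched by age and sex. Groups follow the sample titles, since the treatment field tracks genotype alone (GFP if WT, MET/CAT if KO) and so goes against the titles of the KO GFP and WT MET/CAT groups. Libraries are not stated to come from separate mice, so p-values measure only the spread between these libraries, which may be technical.

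Oxidative phosphorylation passes electrons from NADH (complex I) and succinate (complex II) through ubiquinone to complex III, through cytochrome c to complex IV and on to oxygen. Complexes I, III and IV pump protons, and complex V, the ATP synthase, uses the gradient to make ATP. Each complex except complex II mixes nuclear-encoded subunits with subunits encoded by mitochondrial DNA, and many small accessory subunits surround a catalytic core. Liver relies on this machinery for gluconeogenesis and urea synthesis, and several subunits have separate liver and muscle forms. Transcription factors linked to these genes include nuclear respiratory factor 1 (NRF1) and the ETS factor GABP.

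Letters of known motifs upstream of the members are given first, since these factors are linked to the pathway as a whole. RefSeq windows on GRCm38.p6, of which the 250 bases before each annotated start were searched on both strands, were found for 67 of the 81 members and for 27025 genes in all. These 27025 were not selected by gene type or, as the members were, by their level in liver, so the shares below are not matched for either. The palindromic NRF1 letters, GCGCA followed directly by TGCGC, stood in 4 members (5.97%) and in 0.781% of all genes. The 4 windows are shown because the members that hold the longest motif span complexes I, IV and V, and capitals mark the motif.
Ndufa11: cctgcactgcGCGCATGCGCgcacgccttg
Cox6a1: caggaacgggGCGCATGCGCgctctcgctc
Atp5g2: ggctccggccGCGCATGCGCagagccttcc
Atp5k: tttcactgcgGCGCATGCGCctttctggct
They lie at chr17:56717692-56717721 (plus strand), chr5:115349101-115349130 (minus strand), chr15:102671070-102671099 (minus strand) and chr5:108434430-108434459 (minus strand), and the motif begins 60, 162, 42 and 50 bases before the RefSeq start. The ETS letters CCGGAAG, or CTTCCGG when read from the other strand, stood in 11 members (16.4%) and in 7.05% of all genes. Of those 11, the windows of 5 members described below are shown, with the motif in capitals on either strand.
Ndufb7: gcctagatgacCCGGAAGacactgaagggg
Sdhd: ccgtctcctgcCTTCCGGttcacgcttcag
Uqcrh: actacgaggagtatgccgcaCTTCCGGcca
Cox6b1: tcctctcgcagCTTCCGGccagtcggaatt
Atp5e: tacggccacagCTTCCGGtagccgctcggc
Their positions are chr8:83566727-83566756 (plus strand), chr9:50603877-50603906 (minus strand), chr4:116075071-116075100 (minus strand), chr7:30626124-30626153 (minus strand) and chr2:174464185-174464214 (minus strand). The YY1 letters AAGATGGC stood in 0 of the 67 windows and in 1.59% of all genes, which says only that these letters are not in these bases. The motifs do not overlap each other in the windows printed. A match is a description of letters and not a measured binding site. Gene positions printed below come from a separate annotation, GENCODE, whose starts can differ from those of RefSeq. By GENCODE, the Cox6b1 letters and most of the Atp5k letters lie inside the gene.

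Libraries held 18208879 to 24352961 reads, and values are normalized gene counts. Sirt2, the targeted gene, read 824, 924 and 726 in WT GFP, 233, 183 and 126 in KO GFP, 1068, 943 and 908 in WT MET/CAT and 248, 234 and 201 in KO MET/CAT livers, so every KO library lay below every WT library. By limma it fell by 2.22 on the log2 scale with GFP (adjusted p = 0.00189) and by 2.09 with MET/CAT (adjusted p = 0.00394, and 0.0524 without KO MET/CAT replicate 3). Hepatocyte markers were present in every library, with all 10 above 0 and 9.82% to 16.1% of the reads. KO GFP replicate 3 stood apart for the members. Their median deviation from each gene's own mean (log2 of value + 1) was −1.17 there and −0.32 to 0.65 in the other 11 libraries. KO GFP replicate 3 was the lowest of the 12 libraries for 73 of the 81 members, and WT GFP replicate 2 was the highest for 55. The members took 1.10% of the reads of KO GFP replicate 3 and 1.5% to 2.63% of the others.

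**Figure D1:**
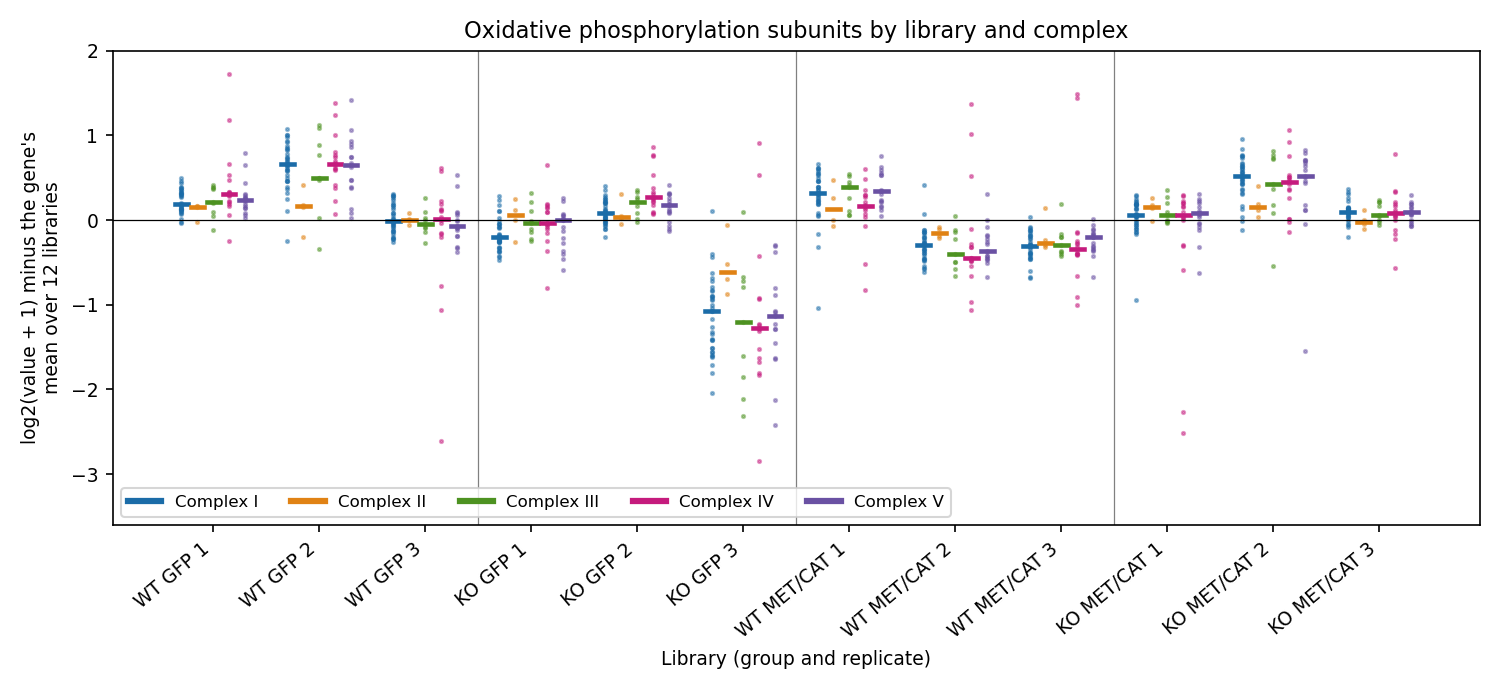
Each point is 1 subunit gene in 1 library, as log2(value + 1) minus that gene's mean over the 12 libraries, and each bar is the median of a complex. Medians of complexes I, III, IV and V sit between −1.28 and −1.07 in KO GFP replicate 3, while complex II sits at −0.61. WT GFP replicate 2 holds the highest medians of complexes I, III, IV and V (0.50 to 0.66).

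Across the 4 comparisons no member passed the test, while most members had differences of the same sign within each comparison. In KO against WT GFP livers the members' median difference was −0.58 on the log2(value + 1) scale, with 75 of 81 lower and 6 higher, against a median of −0.07 with 55.1% lower and 44.9% higher over all genes tested. In KO against WT MET/CAT livers the median was 0.32 with 72 of 81 higher and 9 lower, against 0.00 with 49.7% higher and 50.3% lower. MET/CAT against GFP gave −0.37 in WT livers with 75 lower and 6 higher, against −0.01 with 51.4% lower and 48.6% higher. In KO livers it gave 0.55 with 74 higher and 7 lower, against 0.05 with 53.2% higher and 46.8% lower. Without KO GFP replicate 3 the first of these medians was −0.24 with 67 of 81 lower, and the last was 0.18 with 60 of 81 higher. Leaving out WT MET/CAT replicate 1 gave 0.56 for the second and −0.57 for the third. The second was 0.18 when KO MET/CAT replicate 2 was left out, and the third −0.19 when WT GFP replicate 2 was. Comparisons that share a group share its libraries, so that the KO GFP livers enter both the first and the last of these medians, and WT GFP the first and the third. With a whole-liver sample, fewer cells rich in these transcripts and less RNA per cell cannot be told apart.

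limma called 0 of 81 members in each of the 4 comparisons at an adjusted p under 0.05, where it called 0.00721%, 0.00721%, 0.339% and 1.25% of all genes tested (KO against WT in GFP, then in MET/CAT, then MET/CAT against GFP in WT, then in KO livers). edgeR on the recovered reads also called 0 members in each, where it called 0.00721%, 0.00721%, 0.526% and 1.46% of genes, and DESeq2 0 members where it called 0.872%, 0.245%, 4.17% and 6.69%. With weights for library quality, limma called 35, 0, 18 and 4 members, where it called 33.0%, 0.0144%, 18.9% and 11.8% of genes. Unadjusted p-values under 0.05 were found for 34, 1, 3 and 22 of the 81 members, and for 15.5%, 7.76%, 14.8% and 20.3% of all genes. As shares, the members lay above all genes in the first and last comparisons, which both involve the KO GFP livers, and below in the other 2. Libraries of the 2 groups did not overlap for 13 members that were lower and 2 that were higher in KO GFP than in WT GFP livers, where 13.0% and 9.15% of all genes were apart in those directions. The same counts were 9 higher and 1 lower for KO against WT MET/CAT (6.82% and 7.01% of genes). They were 10 lower and 1 higher for MET/CAT in WT (10.3% and 10.5%) and 21 higher and 2 lower for MET/CAT in KO livers (14.4% and 10.7%). As shares of the 81 members, the counts lower in KO GFP than in WT GFP livers and lower for MET/CAT in WT livers are near the background. Whether the other counts differ from the background was not tested. The interaction, the difference between the 2 genotype differences, had a member median of 0.97 with 74 of 81 higher, against 0.04 and 52.5% higher for all genes. The member median was 0.61 without KO GFP replicate 3, with 72 of 81 higher. limma called 0 members and 0.0% of all genes there, edgeR 0 members and 0.0%, DESeq2 0 members and 1.22%, and limma with library weights 27 members and 9.91%, with 44 members and 15.5% of genes at an unadjusted p under 0.05.

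**Figure D2:**
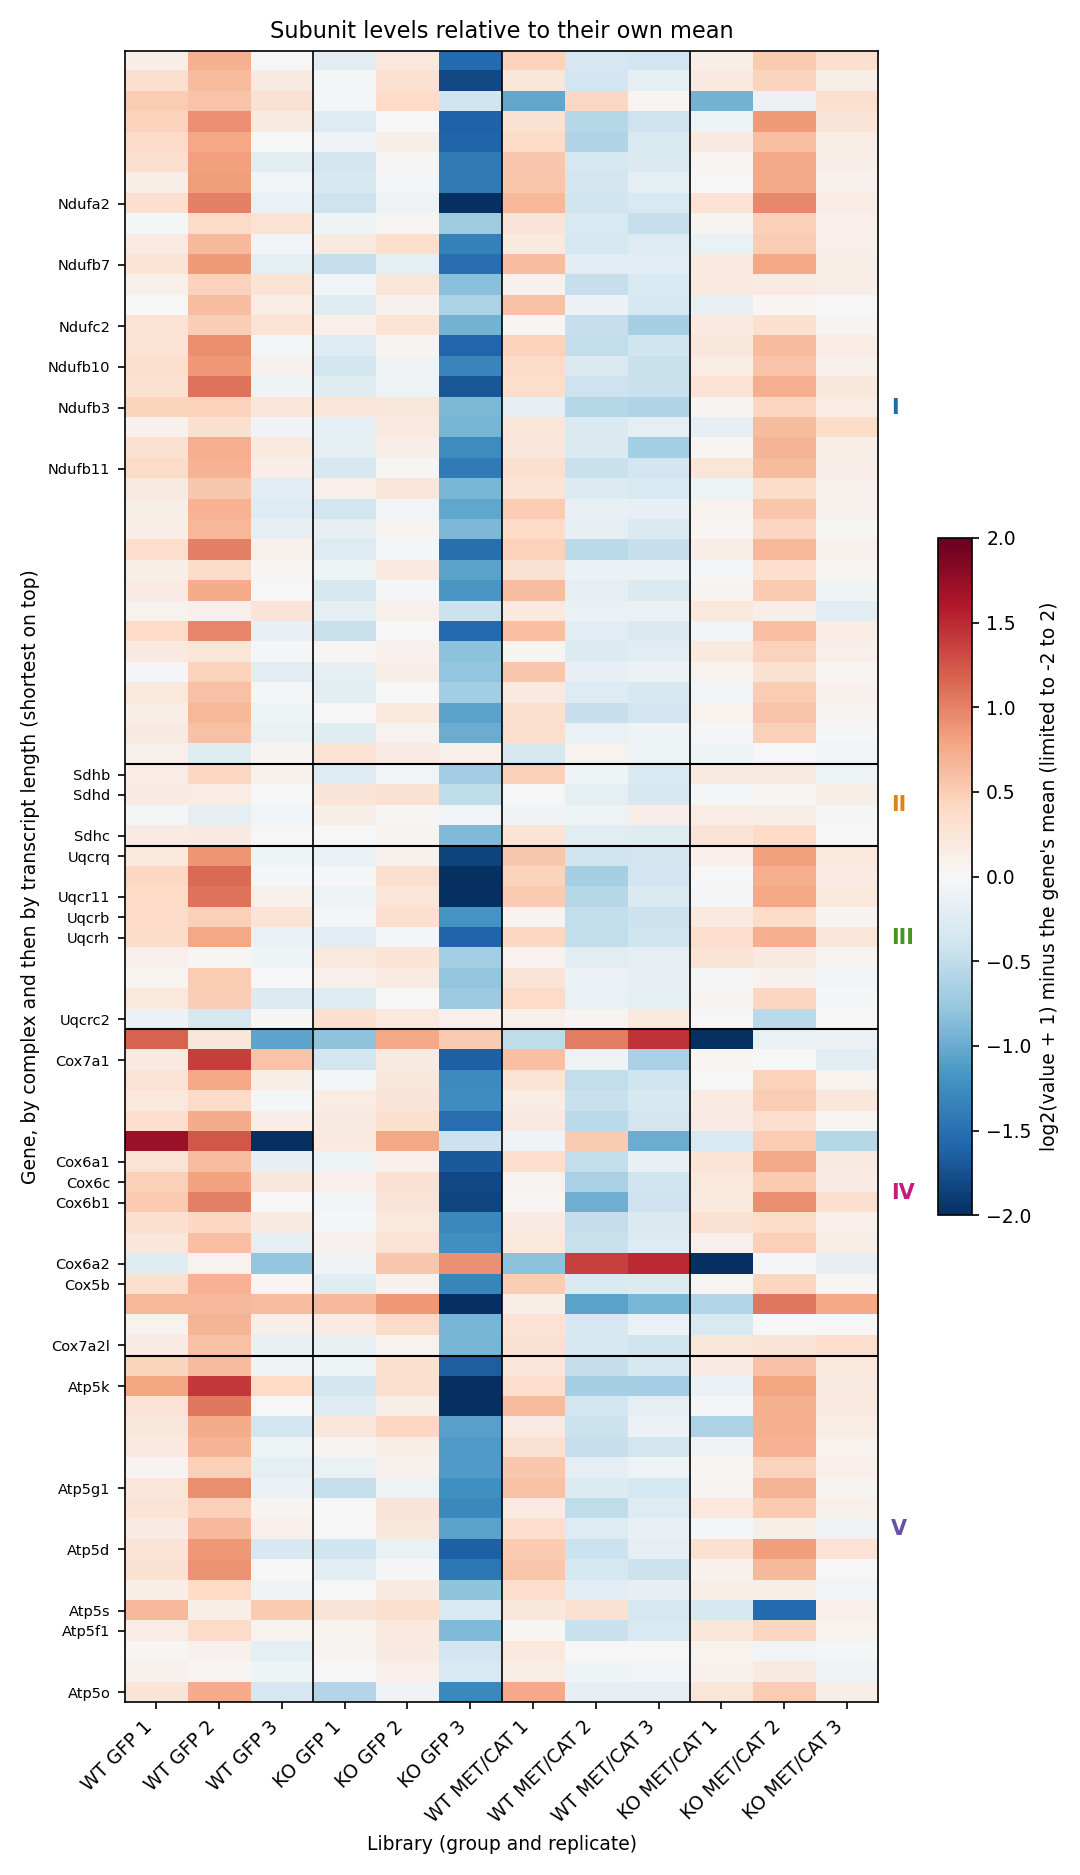
Rows are the 81 subunit genes by complex and, within a complex, by transcript length, and columns are the 12 libraries. Names are given for the members with the 2 smallest p-values of each complex in each comparison. Colour is log2(value + 1) minus the gene's mean, limited to −2 and 2. KO GFP replicate 3 is the lowest column for 73 of the 81 rows and WT GFP replicate 2 the highest for 55.

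Per kilobase of transcript, complex V was highest and complex II lowest among the medians, at 8092 and 3368 normalized counts per kb over the 12 libraries. Complexes I, III and IV had medians of 4376, 5093 and 4049. Within complexes the spread was far wider. Uqcrq, a small subunit of complex III, was at 41627 per kb and Uqcrc2, a large structural protein of the same complex, at 1241. In complex I, Ndufb9 led with 11128 per kb and Ndufb2 was lowest with 45.4, while Sdhb and Sdhc bounded complex II at 5415 and 1426. Cox6a1 and Cox8b bounded complex IV at 28637 and 17.1, and Atp5e and Atp5s complex V at 23929 and 47.6. Annotated near-identical copies elsewhere in the genome, at 95% identity or more over at least 50% of the transcript, were found for 12 members, with up to 9 for Atp5l. Exons of 4 members overlapped another gene on the same strand and of 24 members a gene on the opposite strand, and 48 members had neither an overlap nor a copy. No source used here gives the strand setting of the counting, so reads of such pairs may be shared.

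**Figure D3:**
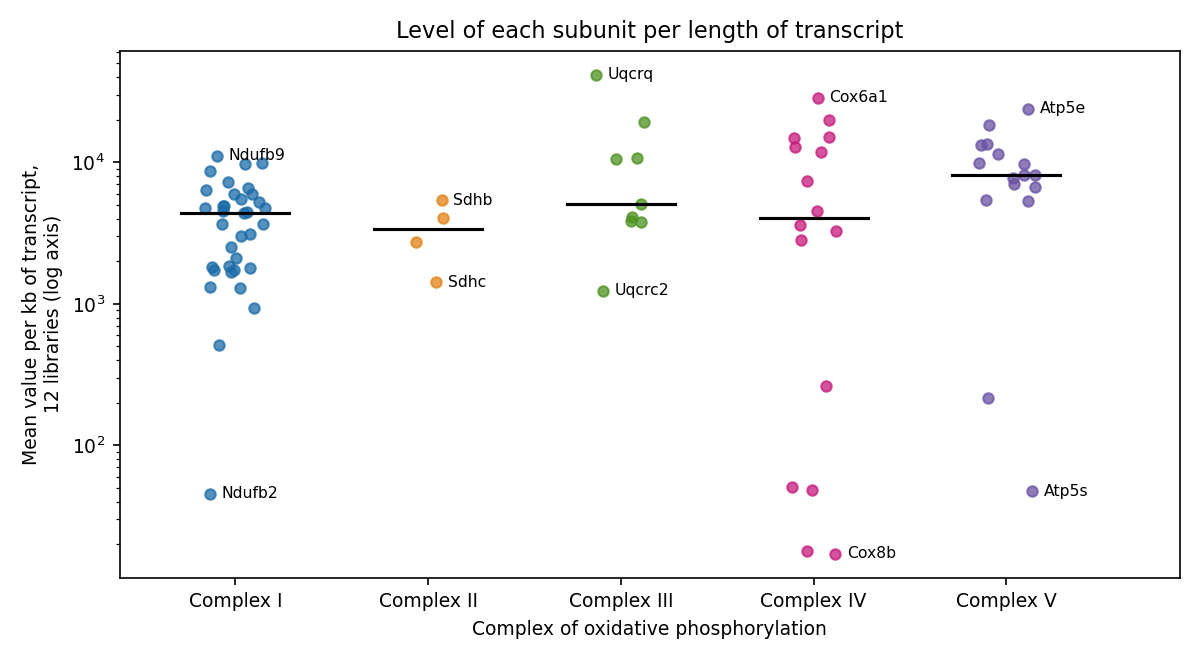
Each point is 1 of the 80 subunit genes with a transcript length, as the mean of 12 libraries of the normalized count per kb of transcript on a log axis, and bars are medians of each complex. The highest and lowest gene of each complex is named. Complex V has the highest median (8092) and complex II the lowest (3368), and Ndufb2, Cox8b and Atp5s lie far below their complexes.

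Complex I takes electrons from NADH. Its 7 core subunits here, among them Ndufs1 and Ndufv1, include those that carry the flavin and iron-sulfur centres, and the other 28 are accessory. KO minus WT in GFP livers had a median of −0.60 over the 35 genes, −0.55 over the core and −0.81 over the accessory genes. These were −0.29, −0.27 and −0.31 without KO GFP replicate 3. With all 12 libraries, all 28 accessory genes had lower values, and Ndufs1 was the only one of the 35 with a higher value. KO against WT MET/CAT livers had a median of 0.35, and MET/CAT against GFP medians of −0.38 in WT and 0.59 in KO livers, the last of which was 0.28 without KO GFP replicate 3.

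Ndufb10, an accessory subunit of the proton-pumping membrane arm (chromosome 17, 24722060 to 24724478, GRCm38), read 8481, 12159 and 7034 (WT GFP) and 5159, 6336 and 2658 (KO GFP). These groups did not overlap, and the difference was −1.02 (SE 0.32, adjusted p = 0.284), or −0.65 without KO GFP replicate 3. Ndufb11, another membrane arm subunit with a near-identical copy (Gm6444), read 6666, 8245 and 5579 (WT GFP) and 4106, 5216 and 1924 (KO GFP), again with no overlap and a difference of −0.97 (SE 0.33, adjusted p = 0.287), or −0.54 without KO GFP replicate 3. Ndufb7 read 2732, 3301 and 1321 with GFP and 4315, 6434 and 4104 with MET/CAT in KO livers. All 3 of the latter lay above all 3 of the former, a difference of 1.09 (SE 0.36, adjusted p = 0.131), or 0.69 without KO GFP replicate 3. Ndufa2, an accessory subunit of the NADH-oxidizing module whose exons overlap Tmco6 on the other strand, read 3749, 4679 and 1212 and 6162, 9718 and 5541 in the same groups. It differed by 1.32 (SE 0.46, adjusted p = 0.145), or 0.72 without KO GFP replicate 3.

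Ndufb3 and Ndufc2, both of the membrane arm, differed most by p in WT livers given MET/CAT. Ndufb3 (chromosome 1, 58586384 to 58595964) read 2074, 2104 and 1812 (WT GFP) and 1809.9, 1784 and 819 (KO GFP). It read 1369, 1033 and 1013 (WT MET/CAT) and 1587, 2058 and 1698 (KO MET/CAT), so the WT MET/CAT libraries lay below all of the WT GFP and KO MET/CAT libraries. MET/CAT differed from GFP in WT livers by −0.82 (SE 0.27, adjusted p = 0.182). A call was reached without KO GFP replicate 3 (adjusted p = 0.0381 by limma for the same difference, where 1.15% of all genes were called). That library is in neither group and enters this test only through the spread estimated over all groups. KO differed from WT MET/CAT livers by 0.65 (SE 0.27, adjusted p = 0.605). With GFP, the KO and WT libraries of Ndufb3 were only just apart, at 1809.9 against 1812. Ndufc2 (chromosome 7, 97400003 to 97407802) read 2023, 2332 and 2024 (WT GFP) and 1781, 1988 and 859.7 (KO GFP). With MET/CAT it read 1703, 1197 and 1039.6 (WT MET/CAT) and 1892, 2068 and 1710.0 (KO MET/CAT), and its differences were −0.72 (SE 0.28, adjusted p = 0.251) in WT livers given MET/CAT and 0.55 (SE 0.28, adjusted p = 0.656) for KO against WT with MET/CAT.

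Of the core, Ndufs1, the largest iron-sulfur subunit of the NADH module, differed little between libraries. It read 1423, 1113 and 1379 (WT GFP) and 1612, 1485 and 1426 (KO GFP). It read 1061, 1392 and 1242 (WT MET/CAT) and 1252, 1309 and 1275 (KO MET/CAT), and the KO GFP libraries were the only group wholly above WT GFP. Ndufv1, which binds the flavin and NADH, averaged 6357 ± 1587 (WT GFP), 4989.9 ± 1497 (KO GFP), then 6443 ± 1861 (WT MET/CAT) and last 6527 ± 683 (KO MET/CAT; SD, n = 3), with overlap between all groups. Ndufb9, the most abundant per kb, averaged 9927 ± 3479, 5312 ± 2628, 6861 ± 2697 and 9238 ± 1754 in the same order. Ndufb2 ran from 8.97 to 29.5 over the 12 libraries, far below every other complex I gene. Its exons overlap Gm42420 on the same strand, which was listed at 0 in every library, and Braf and Gm16272 on the other strand, and the part of these overlaps in its low value was not tested.

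Complex II oxidizes succinate, joins the tricarboxylic acid cycle to the respiratory chain and is the only complex of the 5 with no mitochondrially encoded subunit. Its 4 genes had the smallest medians of the 5 complexes in each of the 4 comparisons with all 12 libraries, at −0.24, 0.15, −0.18 and 0.23. The first was 0.04 without KO GFP replicate 3, of opposite sign, and the last was 0.10, above the 0.06 of complex IV. The 4 genes also have the longest median transcript of the 5, at 2065.5 bases, where the other medians run from 547 to 763. Whether complex II differed from the other complexes was not tested. Sdha, the flavoprotein that oxidizes succinate (chromosome 13, 74322254 to 74350280), read 7737, 6872 and 7565 (WT GFP) and 8553, 8031 and 7573 (KO GFP). It read 7515, 7329 and 8675 (WT MET/CAT) and 8681, 8548 and 7632 (KO MET/CAT), and all 4 groups overlapped. Sdhb, the iron-sulfur subunit (chromosome 4, 140961203 to 140979193), read 6719, 8050.3 and 6416 (WT GFP) and 5075, 5844 and 3719.9 (KO GFP), with no overlap and a difference of −0.55 (SE 0.23, adjusted p = 0.297). It read 8398, 5724 and 4922 (WT MET/CAT) and 6849, 6872 and 5616 (KO MET/CAT), and its MET/CAT to GFP differences were −0.18 (SE 0.23, adjusted p = 0.744) in WT and 0.42 (SE 0.23, adjusted p = 0.316) in KO livers, with overlap in both. The last was 0.24 without KO GFP replicate 3. That library held the lowest Sdhb value, so the KO to WT difference with GFP was also smaller in size without it. Sdhc and Sdhd anchor the complex in the inner membrane. Sdhc read 4945, 5003 and 4408 (WT GFP) and 4442, 4574 and 2406 (KO GFP). With MET/CAT it read 5318, 3818 and 3747 (WT MET/CAT) and 5312, 5839.8 and 4439 (KO MET/CAT), and its differences were −0.39 (SE 0.24, adjusted p = 0.429) for KO against WT with GFP, 0.29 (SE 0.24, adjusted p = 0.774) with MET/CAT and 0.50 (SE 0.24, adjusted p = 0.267) for MET/CAT in KO livers. The first and the last of these were −0.08 and 0.20 without KO GFP replicate 3, so both were smaller in size without it. Sdhd averaged 5279 ± 313 with GFP and 4356 ± 492 with MET/CAT in WT livers (SD, n = 3). Those groups did not overlap, and the difference was −0.28 (SE 0.21, adjusted p = 0.566). KO against WT MET/CAT livers differed by 0.21 (SE 0.21, adjusted p = 0.798) for Sdhd.

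Complex III passes electrons from ubiquinol to cytochrome c. Its 9 genes had medians of −0.67 for KO against WT with GFP, 0.43 with MET/CAT, and −0.41 and 0.50 for MET/CAT against GFP in WT and KO livers. The first was −0.26 and the last 0.13 without KO GFP replicate 3. Uqcrh, the hinge protein at the cytochrome c1 side (chromosome 4, 116066965 to 116075071), read 6866, 9082 and 4831 (WT GFP) and 4547, 5253 and 1753 (KO GFP). With MET/CAT it read 7101, 3760.3 and 4027 (WT MET/CAT) and 6801, 8762 and 6287 (KO MET/CAT). KO differed from WT GFP livers by −0.95 (SE 0.38, adjusted p = 0.291) with overlap, and KO MET/CAT from KO GFP livers by 1.05 (SE 0.38, adjusted p = 0.155) without. These were −0.46 and 0.56 without KO GFP replicate 3. Uqcr11, a very small accessory subunit, read 10062, 16186 and 8177 (WT GFP) and 7093, 9069 and 1537 (KO GFP), and differed by −1.25 (SE 0.53, adjusted p = 0.297). Its value without KO GFP replicate 3 was −0.46.

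Uqcrq, an accessory subunit and the member with the highest level per kb (chromosome 11, 53427922 to 53430831), read 13962, 16311 and 4247 in KO GFP and 16406, 27049 and 17794 in KO MET/CAT livers. The groups came close but did not overlap, and the difference was 1.01 (SE 0.45, adjusted p = 0.228), or 0.40 without KO GFP replicate 3. Uqcrb, an accessory subunit near the ubiquinone site with 3 near-identical copies, read 2511, 2681 and 2325 (WT GFP), then 2011, 1375 and 1442 (WT MET/CAT) and 2224, 2489 and 2013 (KO MET/CAT). The WT MET/CAT libraries lay below both other groups, at −0.66 (SE 0.31, adjusted p = 0.338) against WT GFP and 0.49 (SE 0.31, adjusted p = 0.703) for KO against WT with MET/CAT.

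Uqcrc2, one of the large core proteins facing the matrix (chromosome 7, 120635176 to 120659524), had differences of opposite sign to the complex medians in all 4 comparisons. It read 2147, 1828 and 2356 (WT GFP) and 2912, 2689 and 2490.5 (KO GFP). It read 2499.9, 2413 and 2648 (WT MET/CAT) and 2329, 1598 and 2317 (KO MET/CAT), so that KO lay above WT with GFP and below WT with MET/CAT, without overlap in either. Its differences were −0.30 (SE 0.18, adjusted p = 0.703) for KO against WT with MET/CAT and 0.26 (SE 0.18, adjusted p = 0.536) for MET/CAT against GFP in WT livers. Its exons overlap Pdzd9 on the other strand. The electron carriers of the complex overlapped between all 4 groups. Cyc1, cytochrome c1 (chromosome 15, 76343523 to 76346260), averaged 6635 ± 1343 (WT GFP), 5352 ± 1748 (KO GFP), then 5790.0 ± 964 (WT MET/CAT) and last 5777 ± 305 (KO MET/CAT; SD, n = 3). Uqcrfs1, the Rieske iron-sulfur protein, averaged 5549.9 ± 351, 5488 ± 1778, 5075 ± 579 and 6171 ± 475 in the same order.

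Complex IV, cytochrome c oxidase, hands electrons to oxygen. All of its nuclear-encoded subunits are accessory to a core made in the mitochondrion, and several come in tissue forms. Its medians were −0.71 and 0.40 for KO against WT with GFP and with MET/CAT, and −0.38 and 0.56 for MET/CAT in WT and KO livers. The first was −0.18 and the last 0.06 without KO GFP replicate 3. Cox5a, a subunit on the matrix side (chromosome 9, 57521274 to 57532426), read 2532, 2690.2 and 2297 (WT GFP) and 1977, 2346 and 829.9 (KO GFP). With MET/CAT it read 2262, 1451 and 1661 (WT MET/CAT) and 2485, 2615 and 2159 (KO MET/CAT), and KO GFP replicate 3 was the lowest of all. Cox5b, which binds zinc on the matrix side, read 7508, 9781 and 6173 (WT GFP) and 5090.2, 6395 and 2423 (KO GFP), a difference of −0.84 (SE 0.33, adjusted p = 0.29) with overlap. It was −0.43 without KO GFP replicate 3.

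Cox6b1, the subunit that bridges the monomers of the dimer (chromosome 7, 30616861 to 30626151), read 8522, 4232 and 6212 (WT MET/CAT) and 9502, 15711 and 10453 (KO MET/CAT). KO lay above WT with MET/CAT without overlap, at 0.93 (SE 0.46, adjusted p = 0.644). The WT GFP libraries read 11961, 16603 and 8269 and overlapped WT MET/CAT by 1 library, at −0.96 (SE 0.46, adjusted p = 0.346). Cox6c, an accessory subunit of the inner membrane, read 9128, 11487 and 7705 with GFP and 6916, 4186 and 4992 with MET/CAT in WT livers, with no overlap and a difference of −0.83 (SE 0.42, adjusted p = 0.385). Cox6a1, the liver form of subunit VIa, and Cox7a2l, a factor of respiratory supercomplexes, lay higher in each KO MET/CAT than in each KO GFP library. Cox6a1 read 14197, 16257 and 4755 and 18482, 25668 and 17287 in those groups and differed by 0.97 (SE 0.40, adjusted p = 0.199). Cox7a2l read 2658, 3101 and 1550.3 and 3458, 3549.7 and 3761 and differed by 0.62 (SE 0.27, adjusted p = 0.225). Without KO GFP replicate 3 the differences were 0.41 and 0.32.

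Muscle, heart and testis forms were scarce beside the liver forms. Per kb of transcript over the 12 libraries, Cox6a1 stood at 28637 and the muscle form Cox6a2 at 17.8, Cox6b1 at 15051 and the testis form Cox6b2 at 48.7. Cox7a2 stood at 4512, Cox7a2l at 2847 and the muscle form Cox7a1 at 261, and Cox8a at 12862 against Cox8b at 17.1. Ndufa4 stood at 19967 and its hypoxia-inducible paralog Ndufa4l2 at 51.1.

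Cox7a1 read 105, 240.2 and 137 (WT GFP) and 70.8, 104 and 28.9 (KO GFP), with no overlap and a difference of −1.32 (SE 0.46, adjusted p = 0.287), or −0.81 without KO GFP replicate 3. Cox6a2 read 7.98, 10.2 and 5.20 in WT GFP, 9.03, 14.4 and 19.0 in KO GFP, 4.98, 26.4 and 28.9 in WT MET/CAT and 1.20, 9.42 and 8.49 in KO MET/CAT livers. KO against WT with MET/CAT differed by −1.5 (SE 0.77, adjusted p = 0.66) with overlap. Cox8b was at 0 in KO MET/CAT replicate 1, which allows a value of up to 3.61, and reached at most 14.5 in any library. Skeletal muscle markers were low as well, with Tnnc2 at 0 in all 12 libraries and the 6 markers summing to 3.61 in KO MET/CAT replicate 1 and to 18.1 to 65.4 elsewhere. The part of muscle RNA in the muscle forms was not tested. Ndufa4l2 read 61.8, 61.2 and 59.8 (WT GFP) and 61.0, 71.1 and 4.52 (KO GFP). It read 41.9, 17.9 and 20.01 (WT MET/CAT) and 25.3, 81.6 and 66.9 (KO MET/CAT), so KO GFP replicate 3, the 3 WT MET/CAT libraries and KO MET/CAT replicate 1 lay below all of the WT GFP libraries. Cox6b2 ran from 2.60 to 71.8, both within the WT GFP group.

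Complex V makes ATP in its F1 head, driven by a ring of c subunits in the membrane through a central stalk. Its medians were −0.58, 0.27, −0.37 and 0.59 in the order used above, and all 17 genes had lower values in the KO than in the WT livers given GFP. Without KO GFP replicate 3 the first and last medians were −0.17 and 0.14. The large subunits of the head overlapped between the groups of every comparison. Atp5b, the catalytic beta subunit (chromosome 10, 128083273 to 128090391), read 26224, 27157 and 22606 (WT GFP) and 26544, 29052 and 19797 (KO GFP). With MET/CAT it read 29733, 25622 and 25914 (WT MET/CAT) and 27119, 24796 and 25369 (KO MET/CAT), and all groups overlapped. Atp5a1, the alpha subunit beside it, averaged 19984 ± 1267 (WT GFP), 19109 ± 2644 (KO GFP), then 19874 ± 1576 (WT MET/CAT) and last 20841 ± 1836 (KO MET/CAT; SD, n = 3).

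Atp5k, the small membrane subunit e (chromosome 5, 108433244 to 108434448), with a near-identical pseudogene copy, had the largest difference of any member in KO against WT GFP livers. It read 5247, 8049 and 3980.0 (WT GFP) and 2347, 3770.2 and 564 (KO GFP). The difference was −1.69 (SE 0.54, adjusted p = 0.284), with no overlap, and −0.89 without KO GFP replicate 3. With MET/CAT it read 3819.6, 1899 and 1890.1 (WT MET/CAT) and 2785, 5246 and 3433 (KO MET/CAT), and WT MET/CAT lay below WT GFP without overlap, at −1.20 (SE 0.54, adjusted p = 0.322). Atp5d, the delta subunit of the central stalk (chromosome 10, 80138632 to 80145818), whose exons overlap Cbarp on the other strand, read 8616, 10371 and 3672 in KO GFP and 14049, 20199.7 and 13919 in KO MET/CAT livers. Those groups were apart, and its difference of 1.20 (SE 0.39, adjusted p = 0.128) had the smallest adjusted p of any member in any comparison. It was 0.74 without KO GFP replicate 3. Atp5o, the subunit that ties the head to the peripheral stalk, read 2469, 3558 and 1519.6 and 4406, 5307 and 4098 in the same groups and differed by 0.95 (SE 0.34, adjusted p = 0.157), or 0.63 without that library.

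Atp5f1, subunit b of the peripheral stalk, read 8588, 6114 and 6729.9 (WT MET/CAT) and 9788, 11265 and 8765 (KO MET/CAT). KO lay above WT without overlap, at 0.48 (SE 0.26, adjusted p = 0.668), and WT MET/CAT lay below the WT GFP libraries, which read 9201, 10838 and 8802, at −0.44 (SE 0.26, adjusted p = 0.461). The c ring is encoded by 3 genes for the same mature protein, of which Atp5g3 stood at 18408 per kb, Atp5g1 at 11469 and Atp5g2 at 216, with annotated copies for Atp5g1 and Atp5g2. Atp5g1 read 8699, 14100.5 and 6797 (WT GFP) and 5354, 6885 and 3150.4 (KO GFP), a difference of −0.95 (SE 0.35, adjusted p = 0.287) with overlap. KO GFP replicate 3 held the lowest of these values, so the difference was smaller in size without it. Atp5g3 averaged 15232 ± 2195, 10923 ± 5169.9, 11104 ± 2640.4 and 15313 ± 2364 in the order of groups given for Atp5a1, and Atp5g2 108 ± 41.2, 88.8 ± 41.6, 83.1 ± 17.1 and 101 ± 44.4 (SD, n = 3). Atp5e, subunit epsilon, averaged 12977 ± 5141 and 6440.0 ± 3954 in WT and KO GFP livers, with 1 KO library above the lowest WT library. Atp5s read 77.7, 82.2 and 52.3 (WT MET/CAT) and 53.0, 22.0 and 71.1 (KO MET/CAT) and differed by −0.65 (SE 0.41, adjusted p = 0.703) between KO and WT with MET/CAT, with overlap.

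The differences followed transcript length in each of the 4 comparisons. The members are short, with a median of 723 bases for the 80 with a length against 2726 bases for the other genes tested, and 55.0% of them against 6.25% lie under 800 bases. Across the 13811 genes with a length, the difference of KO against WT in GFP livers correlated with length (Spearman rho = 0.403), and within the members it did so too (0.476, n = 80). In the other comparisons the rhos were −0.195 over all genes and −0.361 over the members (KO against WT with MET/CAT), 0.235 and 0.522 (MET/CAT in WT) and −0.295 and −0.417 (MET/CAT in KO livers). These are descriptions across genes, which share libraries and are not independent replicates. Among libraries, the deviation from each gene's mean followed length most in KO GFP replicate 3, at 0.482 over all genes and 0.580 over the members. WT GFP replicate 2 had the steepest opposite trend, at −0.371 and −0.525.

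Short genes that are no members had medians of the same sign as the members' and, with all 12 libraries, somewhat smaller. In KO against WT GFP livers the median was −0.64 for the 858 other genes under 800 bases and −0.80 for the 44 members of that length. In the other 3 comparisons the values were 0.25 and 0.41, −0.36 and −0.48, and 0.49 and 0.69, in the order used above. Without KO GFP replicate 3 the first and the last were −0.29 and 0.18 for the other genes and −0.28 and 0.15 for the members, so the members' were then no larger. Among genes of 1600 bases or more, the 13 members had medians of −0.37, 0.09, −0.13 and 0.45, against 0.03, −0.05, 0.05 and −0.03 for 10583 other genes. The first and last of these member medians were −0.08 and 0.13 without KO GFP replicate 3. With each library's trend with length removed, the members' medians were −0.11, 0.17, −0.11 and 0.21, with 26, 63, 21 and 54 of 80 genes higher. The first of them was 0.03 and the last 0.04 when KO GFP replicate 3 was left out as well.

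**Figure D4:**
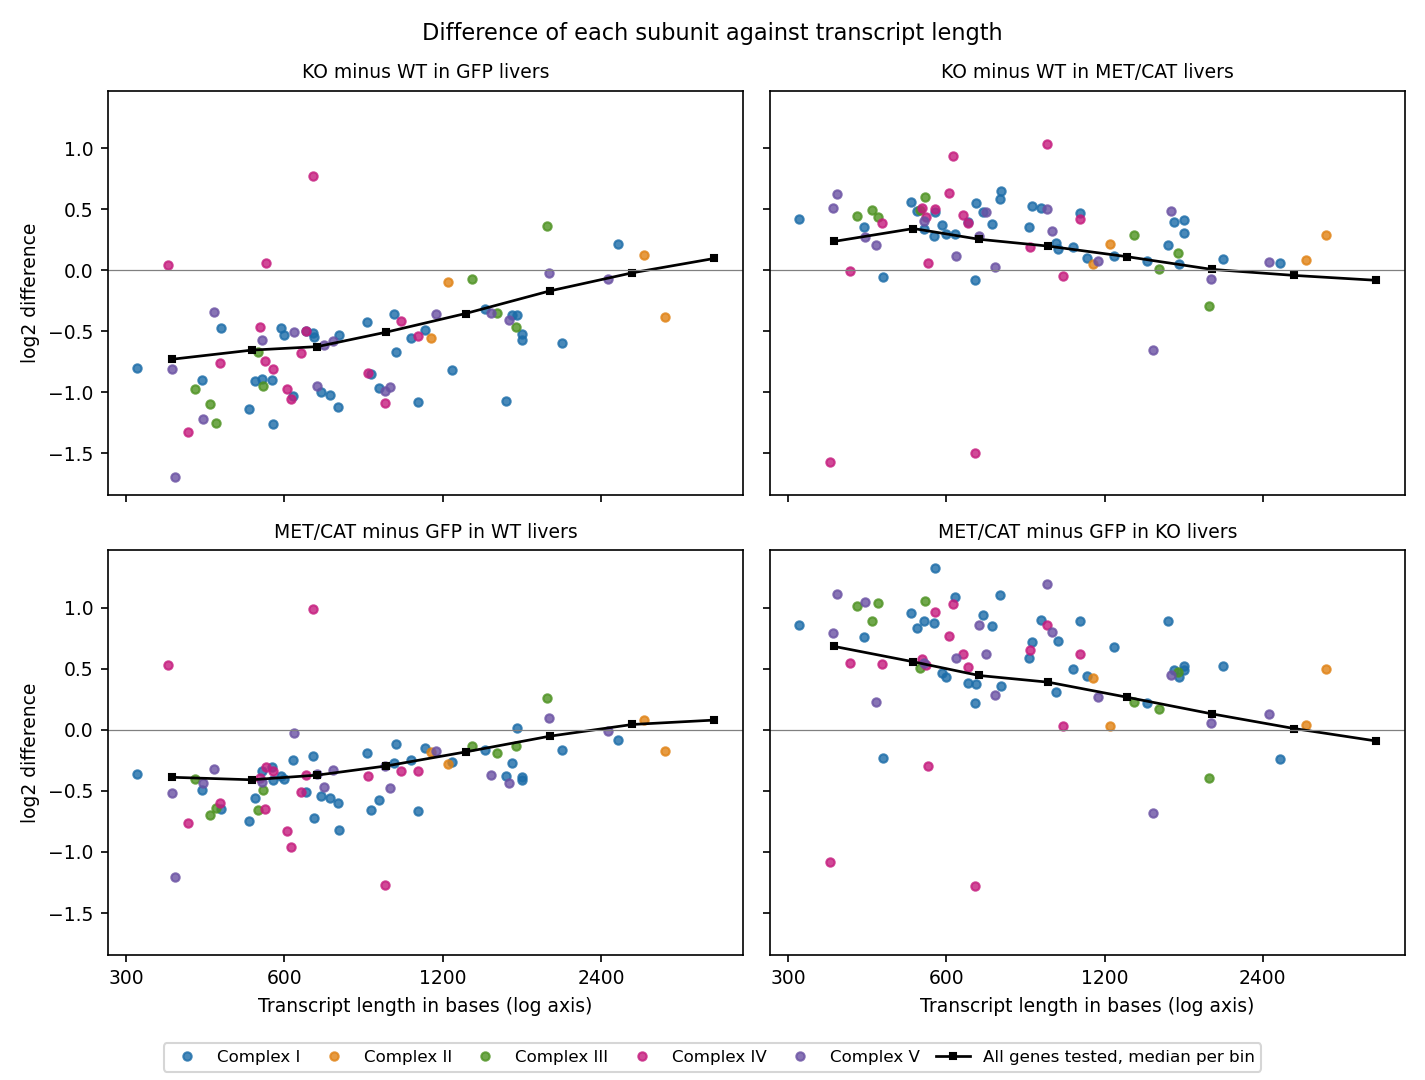
Each coloured point is 1 of the 80 subunit genes with a length, as the log2 difference against transcript length on a log axis, and the black line joins medians of all genes tested in bins of length. The 4 panels are the 4 comparisons. The line of all genes runs from −0.73 in the shortest bin to 0.10 in the longest for KO minus WT in GFP livers, and the members lie around it or somewhat beyond it.

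By complex, the medians with the trend removed were −0.20, 0.00, −0.21, −0.07 and −0.04 for complexes I to V in KO against WT GFP livers. They were 0.16, 0.14, 0.21, 0.20 and 0.10 for KO against WT with MET/CAT, and −0.14, −0.05, −0.08, −0.12 and −0.06 for MET/CAT in WT livers. In KO livers MET/CAT gave 0.29, 0.06, 0.26, 0.05 and 0.13. Complexes I and III had larger medians than II, IV and V in both comparisons that involve the KO GFP livers. With KO GFP replicate 3 left out as well, complexes I and III stood at −0.05 and 0.02 in KO against WT GFP livers and at 0.12 and −0.06 for MET/CAT in KO livers. Whether the complexes differ was not tested.

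**Figure D5:**
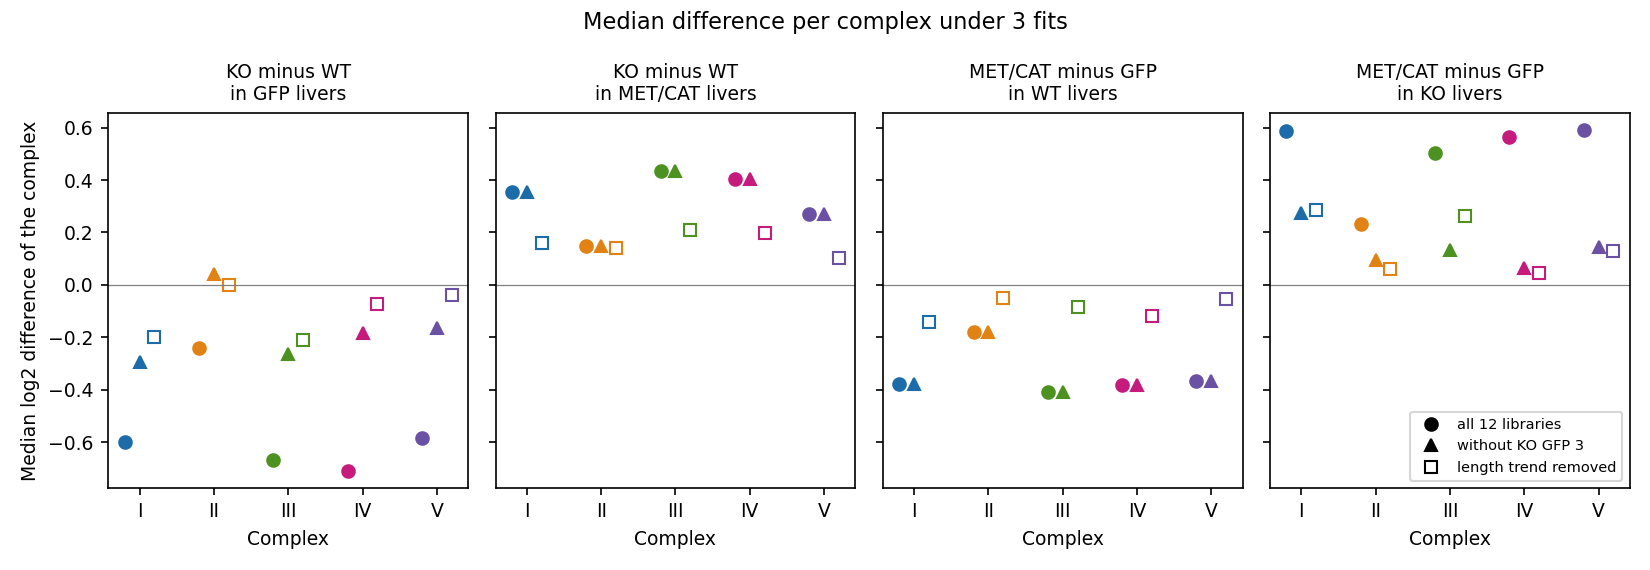
Symbols are the median log2 difference of each complex in the 4 comparisons, with all 12 libraries (circles), without KO GFP replicate 3 (triangles) and with each library's trend with transcript length removed (open squares). Complexes I, III, IV and V move from between −0.71 and −0.58 to between −0.21 and −0.04 for KO minus WT in GFP livers when the length trend is removed.

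Other genes of the pathway are given by list. The 13 mitochondrially encoded subunits, which join the nuclear subunits in complexes I, III, IV and V, had medians of −0.21 for KO against WT with GFP, −0.98 with MET/CAT, and 0.92 and 0.09 for MET/CAT in WT and KO livers. All 13 had lower values in KO than in WT livers with MET/CAT, where 72 of the 81 nuclear members had higher values. In that comparison the KO libraries lay wholly below the WT libraries for 12 of the 13, where 7.01% of all genes did so. In WT livers the MET/CAT libraries lay wholly above the GFP libraries for 11 of the 13, where 10.5% of all genes did so. The median with GFP was −0.12 without KO GFP replicate 3. With the length trend removed it was 0.32, and the median for MET/CAT in KO livers was −0.29, so both had the opposite sign. mt-Co2, a catalytic subunit of complex IV, read 682, 604 and 819 with GFP and 1361, 2093 and 2342 with MET/CAT in WT livers. It rose by 1.43 (SE 0.24, adjusted p = 0.0213), the single gene of the list that passed in any of the 4 comparisons with all 12 libraries. The call was lost without WT GFP replicate 1 or 2 or WT MET/CAT replicate 2 or 3, with adjusted p-values from limma of up to 0.116. It read 884, 907 and 623 in KO MET/CAT livers, a difference from WT of −1.25 (SE 0.24, adjusted p = 0.495). mt-Co3, of the same complex, differed by 1.05 (SE 0.22, adjusted p = 0.0548) and −1.11 (SE 0.22, adjusted p = 0.495) in these comparisons. The first of these was called without KO GFP replicate 3 (adjusted p = 0.0215 by limma, where 1.15% of all genes were called). In GFP livers the smallest p belonged to mt-Atp8, a complex V subunit, at −1.12 (SE 0.49, adjusted p = 0.307).

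With all 12 libraries, the 3 measured subunits that the name rule misses had differences of the same sign as the members' medians in all 4 comparisons. Cox4i1, the most abundant of them and a subunit of complex IV, read 16206, 24599.7 and 11884 (WT GFP) and 9869, 12259 and 2626 (KO GFP) and differed by −1.30 (SE 0.48, adjusted p = 0.287). KO MET/CAT and KO GFP livers differed for it by 1.32 (SE 0.48, adjusted p = 0.158). Both were smaller without KO GFP replicate 3, at −0.61 and 0.63. Ndufab1, the acyl carrier protein of complex I, differed by −0.92 (SE 0.36, adjusted p = 0.29) in KO against WT GFP livers and by −0.93 (SE 0.36, adjusted p = 0.25) in WT livers given MET/CAT, the first of which was −0.48 without that library. Cycs, cytochrome c, differed by 0.35 (SE 0.29, adjusted p = 0.759) between KO and WT with MET/CAT. Its differences were −0.14 for KO against WT with GFP and 0.34 for MET/CAT in KO livers. Without KO GFP replicate 3 these were 0.25 and −0.05, each of opposite sign.

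The 47 assembly factors had medians of −0.25, 0.15, −0.28 and 0.05. With all 12 libraries none was called in the 4 comparisons by limma, with 9, 3, 6 and 8 at an unadjusted p under 0.05. Cox16, a complex IV assembly factor, differed by −1.82 (SE 0.49, adjusted p = 0.272) in KO against WT GFP livers and by −1.85 (SE 0.49, adjusted p = 0.106) in WT livers given MET/CAT. Sdhaf1, which helps to build complex II, differed by −2.74 (SE 0.62, adjusted p = 0.0679) in the latter and by 2.08 (SE 0.62, adjusted p = 0.496) between KO and WT with MET/CAT. Without KO GFP replicate 3, Sdhaf1 was called in WT livers given MET/CAT (adjusted p = 0.0151 by limma, where 1.15% of all genes were called). Uqcc3, of complex III assembly, differed by −1.23 (SE 0.40, adjusted p = 0.285) between KO and WT GFP livers. Uqcc3 differed by −0.72 without KO GFP replicate 3, and the first and last medians of the list were −0.16 and −0.01 without it.

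The 16 regulators of mitochondrial biogenesis had medians of 0.05, −0.10, 0.03 and −0.34 and the 13 genes of the tricarboxylic acid cycle −0.10, 0.05, −0.02 and 0.04. With all 12 libraries, limma called 0 in either list. At an unadjusted p under 0.05 there were 3, 0, 5 and 3 regulators and 0, 1, 0 and 3 cycle genes. Tfam, which packages and transcribes mitochondrial DNA, differed by −0.61 (SE 0.17, adjusted p = 0.113) and −0.47 (SE 0.17, adjusted p = 0.15) for MET/CAT in WT and KO livers, and Polg2, a subunit of the mitochondrial DNA polymerase, by −1.38 (SE 0.29, adjusted p = 0.053) and −0.76 (SE 0.29, adjusted p = 0.174). Without KO GFP replicate 3, Polg2 was called for MET/CAT in WT livers (adjusted p = 0.0394 by limma, where 1.15% of all genes were called). Cs, citrate synthase, and Fh1, fumarase, differed by 0.57 (SE 0.20, adjusted p = 0.154) and 0.45 (SE 0.16, adjusted p = 0.152) in KO livers given MET/CAT. Gabpa, the DNA-binding subunit of GABP, differed by 0.57 (SE 0.23, adjusted p = 0.291) in KO against WT GFP livers. This was 0.36 without KO GFP replicate 3, and the first and last medians of the cycle genes were 0.05 and −0.05 without it.

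Ribosomal protein genes had medians of the same sign as the members' in all 4 comparisons. The 77 tested genes of cytosolic ribosomal proteins gave −0.59, 0.28, −0.23 and 0.68 and the 77 of mitochondrial ribosomal proteins −0.48, 0.16, −0.32 and 0.31. Leaving out KO GFP replicate 3, the first and last of these were −0.27 and 0.36 (cytosolic) and −0.22 and 0.08 (mitochondrial). In KO GFP replicate 3 the cytosolic ones had a median deviation of −1.09, against −0.22 to 0.63 elsewhere.

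Markers of other liver cells differed between some groups. The 12 Kupffer cell and macrophage markers all had lower values in KO than in WT livers given GFP, with a median of −1.43 and −0.86 without KO GFP replicate 3. Their summed value was 9404 to 12453 with GFP and 7214 to 10347 with MET/CAT in WT livers, and 1882 to 5845 with GFP and 8229 to 11118 with MET/CAT in KO livers, and none was at 0 in any library. The 5 erythroid markers gave −1.35 there, and their summed values ran from 9741 to 25826 in the WT and from 5526 to 7459 in the KO livers given GFP. The globin genes among them had lower values, by −2.42 to −1.10. Alas2 had a higher value, by 0.47, or 0.54 without KO GFP replicate 3. Hepatocyte markers had medians of 0.19, −0.07, 0.18 and 0.10, the last of them −0.03 without KO GFP replicate 3. The part of these cells in the members' differences was not tested. limma called 0 of these macrophage and erythroid markers in that comparison, with 11 of 12 and 4 of 5 at an unadjusted p under 0.05, and 2 macrophage markers, Laptm5 and Marco, passed as higher in KO MET/CAT than in KO GFP livers (0.858% of all genes did). The call for Marco was lost without KO GFP replicate 3 or any 1 of the KO MET/CAT libraries (adjusted p up to 0.0712 by limma).

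The other marker lists are given as medians in the order used above. The 6 neutrophil markers gave −0.69, 0.39, 2.86 and 3.63, with Mmp8 called higher for MET/CAT in WT livers, and Cxcr2, S100a8 and S100a9 in KO livers. Each of these 4 calls was lost when 1 of 7, 11, 1 and 2 libraries of the 12, in that order, was left out, among them KO GFP replicate 3 for the 3 in KO livers. The 6 lymphocyte markers gave −1.55, 0.09, −1.46 and 0.40, the 5 of endothelium −0.32, 0.18, −0.05 and 0.33, and the 5 of stellate cells −0.53, 0.11, −0.09 and 0.06. The 4 cholangiocyte markers gave −0.34, 0.69, 0.39 and 1.40, the 3 tested skeletal muscle markers −0.80, −1.74, 0.19 and −1.26, and the 1 tested adipocyte marker 0.996, 0.21, 0.13 and −0.65. The 5 erythroid markers gave −0.46, 0.16 and 1.07 in the last 3 comparisons, and the macrophage markers 0.19, −0.30 and 1.23. In the last comparison Alas2 of the erythroid list had a lower value, by −0.48. Without KO GFP replicate 3 the first medians of stellate cells and cholangiocytes were −0.19 and −0.11. The last medians of lymphocytes, stellate cells and macrophages were −0.31, 0.22 and 0.62. In the first comparison the lymphocyte markers then ran from −1.43 to −0.48. Summed values of the lymphocyte markers were low, at 33.4 to 242 over the libraries of livers given GFP.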

How the data were processed

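RNA from whole mouse livers was measured in 12 libraries, 3 per group. The deposited values are normalized gene counts (a signal on a linear scale, 47263 genes). The submitters' processing notes list the aligner HISAT2 (2.0.4), the counter HTSeq (0.11.2) and the build GRCm38. The tool that normalized the counts and the strand setting were not stated in the sources used here. Each library's values were whole multiples of 1 step in 100% of cases (tolerance 0.001 reads), which gave back the reads, 18208879 to 24352961 per library, and 3 reads correspond to values of 2.26 to 3.61.

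The 13871 genes that reached 10 in 3 or more libraries were tested with limma 3.58.1 (R 4.3.3) on log2(value + 1), a scale that understates changes of low genes, with 4 group means, a mean-variance trend and Benjamini-Hochberg adjustment over all genes tested. A gene was called at an adjusted p under 0.05. Tests were two-sided. edgeR 4.0.16 and DESeq2 1.42.0 on recovered reads, other pseudocounts, filters and scalings, library weights, a replicate block, leaving out each library and removal of a loess trend with transcript length were alternatives. The limma step was also run on simulated counts. These had no length trend and no outlying library, so they cannot show how the step performs on the present libraries. No replicate pair agreed within sampling noise (chi-square per degree of freedom 42.6 to 263). Near-identical copies were sought with BLAST 2.17.0.

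Members and lists were chosen with earlier results of these data known. Named members are, per complex and comparison, the 2 with the smallest p, the highest and lowest per kb, catalytic core subunits and tissue paralogs; from other lists, up to 2 genes with the smallest p per comparison. Lists cover subunits outside the name rule, mitochondrially encoded subunits, assembly factors, biogenesis regulators, tricarboxylic acid cycle genes, ribosomal proteins and markers of hepatocytes, macrophages, neutrophils, lymphocytes, endothelium, stellate cells, cholangiocytes, erythroid cells, skeletal muscle and adipocytes.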

Additional observations from a re-analysis of the deposited data

Results flagged for a closer look

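For 3 of the 81 members the genotype difference was opposite in sign with GFP and with MET/CAT, without overlap of libraries in either, which was also found for 233 of the 13871 genes tested. Ndufb3 differed by −0.53 with GFP and 0.65 with MET/CAT on the log2 scale, and the difference between these was 1.18 (SE 0.38, adjusted p = 0.265 by limma). Ndufc2 differed by −0.55 and 0.55, a difference of 1.10 (adjusted p = 0.265 by limma). For both genes the KO and WT libraries given GFP were only narrowly apart. KO GFP replicate 3 held the lowest value of each, so their differences with GFP were smaller in size without it. Uqcrc2 went the other way, with 0.36 and −0.30 and a difference of −0.66 (adjusted p = 0.281 by limma). None of the 3 passed the test of the difference. Of these, Uqcrc2 also had opposite plasmid differences in the 2 genotypes without overlap, as 183 genes did.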

How the results depend on the processing

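No member was called under the 2 other pseudocounts, the 2 other filters, quantile scaling, equal totals, edgeR, DESeq2, the fit of the 6 libraries compared or the removal of the length trend. Library quality weights called 35 members for KO against WT with GFP, 18 for MET/CAT in WT livers, 4 for MET/CAT in KO livers and 27 for the interaction, with 4575, 2615, 1635 and 1374 of all genes. Those weights ran from 0.240 for KO GFP replicate 3 to 6.06 for KO GFP replicate 1 and 7.25 for WT GFP replicate 1, so the GFP values then rest mostly on 1 library per group. Without single libraries the members called ranged from 0 to 1 for MET/CAT in WT livers, where Ndufb3 was called without KO GFP replicate 3, and were 0 elsewhere.

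Member medians without single libraries ranged from −0.83 to −0.24 and from 0.18 to 0.56 for KO against WT with GFP and MET/CAT, from −0.57 to −0.19 and from 0.18 to 0.83 for MET/CAT in WT and KO livers, and from 0.61 to 1.21 for the interaction. With the length trend removed, with or without the replicate block, the median was −0.11 for KO against WT with GFP and 0.31 for the interaction. With KO GFP replicate 3 left out as well, a choice made after seeing the data, these were 0.034 and 0.19, and MET/CAT in KO livers gave 0.041. Summed exon length, also chosen after seeing the data, gave 0.47 for the interaction. Sdhb in WT livers given MET/CAT had the opposite sign, 0.012, under the 3 removals of the transcript length trend, and the cause was not tested. Equal totals moved the median of all genes by 0.17, 0.06, −0.11 and −0.22 in the 4 comparisons and the member medians to −0.41, 0.38, −0.48 and 0.32, with no change of sign.

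Over all genes, DESeq2 called 121, 34, 578, 928 and 169 (the interaction last), edgeR 1, 1, 73, 202 and 0 and quality weights 2 for KO against WT with MET/CAT, where limma called 1, 1, 47, 174 and 0. With the length trend removed limma called 6, 1, 135, 280 and 0, and with only the 6 libraries compared 0, 1, 49 and 86. Quantile scaling and equal totals called 81 and 71 for MET/CAT in WT livers. Leaving out single libraries gave 1 to 10, 0 to 12, 3 to 372 (the highest without WT MET/CAT replicate 1), 48 to 263 and 0 to 4. Correlations of same-numbered deviations ran from −0.20 to 0.28. Libraries with different numbers were not correlated for comparison, so whether replicate numbers pair the libraries was not tested. The replicate block called 0 members and 7, 1, 64, 187 and 2 genes and left the member medians unchanged.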
